A study of Homo sapiens with 2 samples.

Results

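The MHC class I antigen presentation genes described here were 9 genes chosen by symbol: the heavy chains HLA-B, HLA-C and HLA-E, the light chain B2M, the peptide transporter subunits TAP1 and TAP2, the immunoproteasome subunits PSMB8 and PSMB9, and the transactivator NLRC5. All 9 were listed among the 27685 genes of the deposited data, with 15 of its 63714 transcripts. RNA-seq was performed on 1 library of H2087 cells and 1 library of H596 cells, both established human cell lines labelled as lung adenocarcinoma. Both lines were untreated and were grown in RPMI medium with fetal bovine serum, and stranded mRNA libraries were made from their total RNA. The study used H2087 to select highly expressed genes, with an FPKM (fragments scaled to transcript length and to library size) of at least 100 as its threshold, and its text does not mention H596. Each cell line had 1 library, so differences between them have no replicate check and were not tested.

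The total estimated count was 46961500 for H2087 and 55387847 for H596, and the 9 genes held 0.330% and 0.431% of them. Intervals are 95% intervals that cover counting error only. A difference is that of log2(FPKM + 1), H596 minus H2087, and a gene was called higher or lower when this difference reached 1 or -1, that is 2-fold on this scale. The comparison took in 13048 genes, those whose mean FPKM reached 1, and their median difference was 0.12. Of these genes, 18.2% were called higher in H596 and 14.2% lower. Of 9 epithelial and lung adenocarcinoma markers, 8 passed the filter, and 5 of these were lower in H596 and 1 was higher, with a median difference of -2.36. EPCAM was at 375 and 65.0 FPKM in H2087 and H596, KRT8 at 2493 and 536 FPKM, KRT18 at 3607 and 234 FPKM, and KRT19 at 561 and 2183 FPKM, and KRT7 and CDH1 were not called. The lung adenocarcinoma markers NKX2-1 and NAPSA were at 110 and 21.9 FPKM in H2087 and at 0.508 and 0.0645 FPKM in H596. SFTPB, the marker that did not pass the filter, was near 0 in both, at 0.123 FPKM (22 counts) in H2087 and 0 in H596. Of 10 leukocyte markers, 7 had a count of 0 in H2087 and 5 in H596, and PTPRC, CD3D, CD3E, MS4A1 and NKG7 were at 0 in both. The summed FPKM of the leukocyte list was 132 in H2087 and 26.04 in H596, of which CD68, a lysosomal protein gene, made 128 and 25.6. CD79A was at 3.72 and 0.0839 FPKM (223 and 6 counts). CD68 and CD79A were the 2 leukocyte markers that passed the filter, and both were called lower, with a median difference of -2.20.

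MHC class I molecules display peptides from inside the cell to cytotoxic T cells. Proteasomes cut proteins into peptides, the TAP transporter moves the peptides into the endoplasmic reticulum, and there they are loaded onto a heavy chain paired with beta-2 microglobulin, the product of B2M. Interferon-gamma induces most of these genes, NLRC5 is a transactivator of class I promoters, and loss of this pathway is a known route by which lung tumors escape T cells.

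Of the 9 genes, 3 were called higher in H596 (HLA-C, TAP1 and PSMB9), where the background was 18.2% of all genes compared, and 1 was called lower (NLRC5), where the background was 14.2%. At these background shares, between 1 and 2 of 9 genes would be called in each direction, and neither count is read as particular to the pathway. The other 5 genes (HLA-B, HLA-E, B2M, TAP2 and PSMB8) differed by less than 2-fold. The median difference of the 9 was 0.81, against 0.12 for all genes compared. After the median of all genes was subtracted, the differences of HLA-C, TAP1 and PSMB9 were 1.45, 1.10 and 1.49. All 9 genes passed the filter on low values. At the threshold of 100 FPKM, 4 of the 9 were above it in H2087 (HLA-B, HLA-C, B2M and PSMB8), with a background of 2.54% of all listed genes. In H596, 6 were above it, the same 4 with HLA-E and PSMB9, with a background of 2.3%. These 2 backgrounds are over all 27685 listed genes and not the 13048 compared. Of the listed genes, 10050 had a count of 0 in H2087 and 9978 in H596, so the backgrounds are low for genes that passed the filter. In bulk RNA, a smaller share of cells that express a gene and less RNA per cell cannot be told apart.

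**Figure D1:**
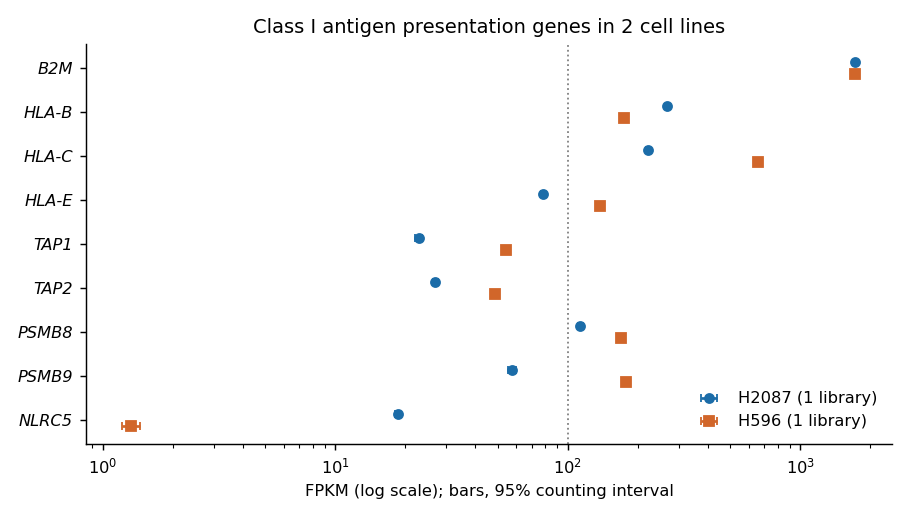
FPKM of the 9 genes (log axis) in the H2087 library (circles) and the H596 library (squares). Bars are 95% counting intervals, mostly hidden by the symbols, and the dotted line marks 100 FPKM. B2M was at 1720 and 1724 FPKM, while NLRC5 was at 18.6 FPKM in H2087 and 1.32 FPKM in H596.

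HLA-B and HLA-C encode classical heavy chains, which present peptides to T cells. Both genes lie on chromosome 6 on the minus strand, HLA-B at 31321643 to 31325022 and HLA-C at 31236526 to 31239913 (hg19, as are all positions of genes below). HLA-B was at 267 FPKM in H2087 (95% CI, 264–271) and at 174 FPKM in H596 (172–177), a difference of -0.61. HLA-C was at 221 FPKM in H2087 (218–224) and at 657 FPKM in H596 (652–662), a difference of 1.57 and a 2.97-fold ratio (2.92–3.03). HLA-B was thus the more abundant of the pair in H2087 and HLA-C in H596. A larger difference than that of HLA-C was found for 8.93% of the genes compared.

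The promoters of this pair are shown because the genes lay on opposite sides of 0 while their upstream sequences are 89.0% identical. The difference of HLA-B was not called. Each line gives the 250 bases before the RefSeq start site (GRCh38.p14, a newer build than that of the deposited positions, with sequences of the reference genome and not of these cell lines). HLA-B is at chr6:31357180-31357429 and HLA-C at chr6:31272093-31272342, both on the minus strand, and capitals mark every match to the motifs named below.
HLA-B: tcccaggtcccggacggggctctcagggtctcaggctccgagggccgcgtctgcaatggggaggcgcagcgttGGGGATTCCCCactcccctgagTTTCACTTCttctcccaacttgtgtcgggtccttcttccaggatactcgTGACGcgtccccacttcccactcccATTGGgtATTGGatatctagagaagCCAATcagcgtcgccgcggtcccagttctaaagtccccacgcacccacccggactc
HLA-C: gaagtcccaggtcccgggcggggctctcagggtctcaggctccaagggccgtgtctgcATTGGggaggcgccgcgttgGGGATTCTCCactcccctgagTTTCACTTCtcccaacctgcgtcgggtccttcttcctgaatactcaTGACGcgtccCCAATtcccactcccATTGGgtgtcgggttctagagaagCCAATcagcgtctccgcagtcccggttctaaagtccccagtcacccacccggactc
Of the aligned bases, 226 were identical, 20 were mismatches and 8 were gaps, which gave 89.0% identity. The motifs, searched on both strands, were GAANNGAAA and GAAANNGAA, spellings of the interferon response element, the NF-kB consensus, TGACG, the core of the cyclic AMP response element, and CCAAT, the box read by NF-Y. They were chosen with the windows in view, and a match is a description only. Over 35116 RefSeq windows of this length, 12.4% held either interferon spelling, 5.21% the NF-kB consensus, 21.2% TGACG and 32.0% CCAAT. Both HLA windows held all 4 kinds. The interferon match (GAANNGAAA) began 155 bases before the start in HLA-B and 151 bases before it in HLA-C, and TGACG began 106 and 105 bases before it. HLA-B held 2 overlapping NF-kB matches and HLA-C held 1, and the windows held 3 CCAAT matches in HLA-B and 4 in HLA-C.

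HLA-E encodes a nonclassical heavy chain that presents leader peptides of other class I molecules to receptors of natural killer cells. It lies on the plus strand of chromosome 6 at 30457183 to 30461982. Its level was 78.3 FPKM in H2087 (76.8–79.9) and 138 FPKM in H596 (136–140), a difference of 0.81. This placed HLA-E below the threshold of 100 FPKM in H2087 and above it in H596, although it was not called.

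A list of 10 other class I and class I-like genes was set beside these heavy chains. Of the 10, 8 passed the filter, 2 were higher and 3 lower, and the median difference was -0.26. The background was 18.2% higher and 14.2% lower. HLA-F, a nonclassical heavy chain with the highest mean of both libraries in the list, was at 32.0 and 22.0 FPKM and was not called. HLA-G, a nonclassical heavy chain of the placenta, had 459 counts in H2087 and 6 in H596. FCGRT, which encodes the neonatal Fc receptor, was at 5.08 and 0.108 FPKM, and PROCR, the endothelial protein C receptor, at 24.7 and 3.65 FPKM. The higher genes were MICA, a stress ligand of natural killer cells, with 9.01 and 23.1 FPKM, and MR1, which presents vitamin B metabolites, with 5.23 and 11.9 FPKM.

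The sum of HLA-B, HLA-C and HLA-E was 566 FPKM in H2087 and 969 FPKM in H596. HLA-B held 47.2% of this sum in H2087 and 18.004% in H596, HLA-C held 39.0% and 67.8%, and HLA-E held 13.8% and 14.2%. HLA-B and HLA-C thus exchanged places as the largest part, while the share of HLA-E was nearly the same. How reads that match several HLA genes were divided is not given in the sources used here. In GENCODE transcripts (GRCh37), 2.56% of the 50-base windows of HLA-B, 6.76% of those of HLA-C and 4.76% of those of HLA-E were found in another class I transcript. With 100-base windows these shares were 0%, 0.277% and 0.612%, and the read length is not given in the sources used here. HLA-H, a pseudogene of this family, had 3044 counts in H2087 and 5 in H596. The levels of HLA-B, HLA-C and HLA-E are uncertain to the extent that such reads were shared. They are also uncertain to the extent that the alleles of these lines differ from hg19. The part of either in these differences was not tested.

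B2M encodes the light chain of every class I molecule and lies on chromosome 15 at 45003685 to 45010357, outside the MHC. B2M was at 1720 FPKM in H2087 (1708–1732) and at 1724 FPKM in H596 (1713–1735). The ratio of 1.002 (0.993–1.01) covers 81366 and 96553 estimated counts, and the difference ranged from -0.12 to 0.19 over the alternative scalings, so no direction is given. B2M ranked 31 by FPKM in H2087 and 12 in H596, the highest of the 9 genes in both. Its promoter window is shown because it carries the same kinds of motif as the HLA windows, at chr15:44711267-44711516 (GRCh38.p14, plus strand).
B2M: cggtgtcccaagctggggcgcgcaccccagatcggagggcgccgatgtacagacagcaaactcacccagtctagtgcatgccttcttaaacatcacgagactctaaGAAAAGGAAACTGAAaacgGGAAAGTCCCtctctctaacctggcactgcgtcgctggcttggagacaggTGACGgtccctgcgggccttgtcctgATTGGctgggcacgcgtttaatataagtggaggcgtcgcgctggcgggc
The window held 2 overlapping interferon matches, of the spelling GAAANNGAA, the first of them 144 bases before the start, and 1 match each to the NF-kB consensus, TGACG and CCAAT.

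The ratio of B2M to the sum of HLA-B, HLA-C and HLA-E was 3.04 in H2087 (3.002–3.07) and 1.78 in H596 (1.76–1.79). B2M exceeded this sum in both libraries, by more in H2087. The sum covers these 3 heavy chains only, so the ratio is not one to all class I heavy chains.

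**Figure D2:**
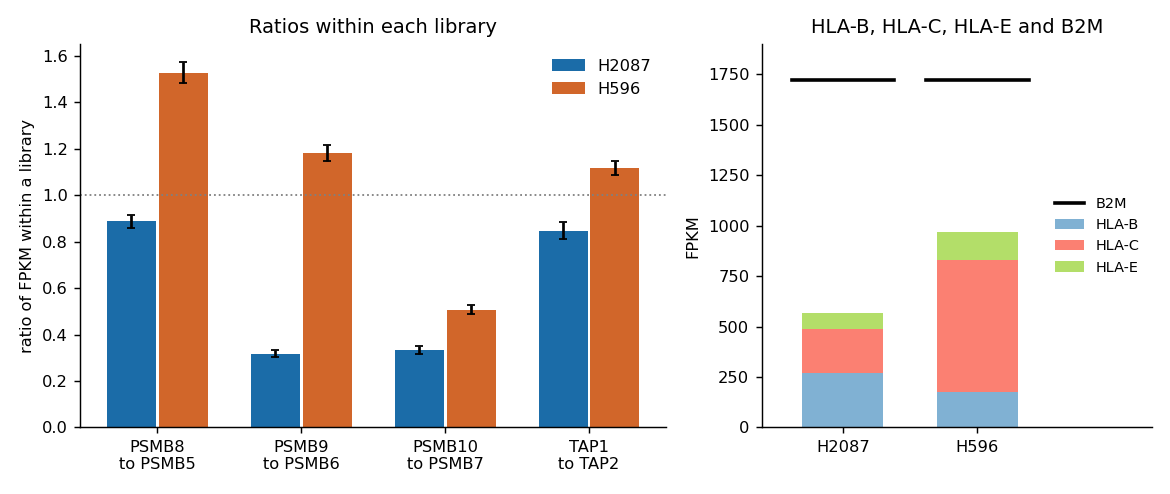
Left, ratios of FPKM within each library, with bars starting at 0 and 95% counting intervals. PSMB9 was at 0.317 of PSMB6 in H2087 and at 1.18 of it in H596. Right, FPKM of HLA-B, HLA-C and HLA-E stacked, with a black line at the FPKM of B2M. The stacks reached 566 and 969 FPKM, and HLA-C was the largest block in H596.

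TAP1 and TAP2 encode the subunits of the transporter that carries peptides into the endoplasmic reticulum. Together with PSMB8 and PSMB9 they form a cluster of 38.02 kb in the class II part of the MHC, in the order TAP2 (32789610 to 32806600), PSMB8 (32808494 to 32812712), TAP1 (32812986 to 32821748) and PSMB9 (32821938 to 32827628). PSMB9 is on the plus strand and the other 3 are on the minus strand. TAP1 was at 22.8 FPKM in H2087 (22.0–23.6) and at 54.2 FPKM in H596 (53.1–55.3), a difference of 1.21. TAP2 was at 26.9 FPKM (26.3–27.6) and at 48.6 FPKM (47.8–49.3), a difference of 0.83 that was not called. The ratio of TAP1 to TAP2 was 0.847 in H2087 (0.813–0.884) and 1.12 in H596 (1.09–1.15). TAP2 was the higher subunit in H2087 and TAP1 in H596, and neither was above 100 FPKM in either line.

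PSMB8 and PSMB9 encode catalytic subunits of the immunoproteasome, which take the places of the constitutive subunits PSMB5 and PSMB6. PSMB8 was at 113 FPKM in H2087 (111–116) and at 169 FPKM in H596 (166–172), a difference of 0.57. PSMB9 was at 57.6 FPKM in H2087 (55.5–59.7) and at 178 FPKM in H596 (174–181), a difference of 1.61 and a 3.09-fold ratio (2.96–3.22), the largest positive difference of the 9 genes. PSMB9 was about as abundant as PSMB8 in H596, but not in H2087.

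TAP1 and PSMB9, both called higher, are transcribed away from each other, with 189 bases between the deposited genes and 487 bases between the RefSeq starts. The windows of both starts, which cover this shared interval, are shown for that reason. TAP1 is at chr6:32853705-32853954 (minus strand) and PSMB9 at chr6:32853942-32854191 (plus strand), both GRCh38.p14.
TAP1: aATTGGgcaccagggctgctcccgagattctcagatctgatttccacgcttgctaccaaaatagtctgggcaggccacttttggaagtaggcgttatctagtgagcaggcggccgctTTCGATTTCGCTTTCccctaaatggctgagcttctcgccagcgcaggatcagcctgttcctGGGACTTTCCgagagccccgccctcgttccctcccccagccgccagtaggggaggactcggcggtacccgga
PSMB9: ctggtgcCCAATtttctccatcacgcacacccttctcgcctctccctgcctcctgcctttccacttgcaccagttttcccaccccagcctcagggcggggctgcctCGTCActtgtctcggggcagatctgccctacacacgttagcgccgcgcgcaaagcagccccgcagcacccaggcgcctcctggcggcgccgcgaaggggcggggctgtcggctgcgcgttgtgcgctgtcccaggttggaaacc
The TAP1 window held 2 overlapping interferon matches, of the spelling GAAANNGAA, from 133 bases before its start, and an NF-kB match from 72 bases before it. The PSMB9 window held 1 match each to TGACG and CCAAT and none to the other motifs in these letters. The CCAAT match lies in the bases that the 2 windows share and is the match at the far end of the TAP1 window. The TAP2 window held 2 overlapping interferon matches and 1 TGACG match. TAP1 and PSMB8 have 2 RefSeq starts each. The downstream windows of both held no match, and the upstream window of PSMB8 held 1 TGACG match. Windows were found for 7 of the 9 genes, all but HLA-E and NLRC5.

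The constitutive subunits gave the reference for the immunoproteasome within each library. PSMB5, PSMB6 and PSMB7 were at 128, 181 and 133 FPKM in H2087 and at 111, 151 and 146 FPKM in H596, and none of the 3 was called. The ratio of PSMB8 to PSMB5 was 0.887 in H2087 (0.859–0.917) and 1.53 in H596 (1.48–1.57). The ratio of PSMB9 to PSMB6 was 0.317 (0.304–0.331) and 1.18 (1.15–1.22). PSMB10, the third inducible subunit, was at 44.1 and 73.9 FPKM, and its ratio to PSMB7 was 0.333 (0.316–0.349) and 0.507 (0.489–0.526). All 3 inducible subunits were below their constitutive counterparts in H2087, and in H596 PSMB8 and PSMB9 were above theirs and PSMB10 was not. PSMB10 lies on chromosome 16, outside the MHC cluster.

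NLRC5 encodes the NOD-like receptor family protein that transactivates class I promoters. It lies on the plus strand of chromosome 16 at 57023397 to 57117436. NLRC5 was at 18.6 FPKM in H2087 (18.1–19.0, 5985 counts) and at 1.32 FPKM in H596 (1.21–1.44, 507 counts), a difference of -3.07 and 14.02-fold lower (12.8–15.4). In H2087, 69.1% of the genes compared were below NLRC5, and in H596, 7.76%. A more negative difference was found for 1.74% of the genes compared. NLRC5 was the only gene of the 9 called lower, and its difference was opposite in direction to those of HLA-C, TAP1 and PSMB9. Both libraries together give 1 difference per gene, so no relation between NLRC5 and the other genes was computed.

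Transcripts listed for the same gene were examined for PSMB8, NLRC5 and TAP2, whose makeup differed most, as seen after the values were known. For PSMB8, the transcript NM_004159, which starts farther upstream, was at 39.2 FPKM in H2087 and 8.82 FPKM in H596, or 34.6% and 5.22% of the gene. Its other transcript, NM_148919, was at 74.0 and 160.0 FPKM. The gene-level difference of PSMB8 thus combined a lower and a higher transcript, and the transcript with the highest level had a difference of 1.10, past 2-fold.

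For NLRC5, NM_032206 held 77.8% of the FPKM in H2087 and 51.0% in H596, and NM_001330552, which starts farther upstream, held 22.2% and 49.0%. Both transcripts were lower in H596, from 14.4 to 0.675 FPKM and from 4.12 to 0.649 FPKM. The H596 shares rest on 258 and 249 counts. The 2 transcripts end at the same position and are 6724 and 6748 bases long, and their split is an estimate. For TAP2, the main transcript NM_000544 was at 25.5 and 35.8 FPKM, NM_001290043 at 0.592 and 9.28 FPKM, and NM_018833, which has another 3′ end, at 0.806 and 3.46 FPKM. NM_000544 and NM_001290043 differ little in span, so their split is an estimate. TAP1 was almost entirely NM_000593, with 96.6% and 97.8% of its FPKM. The 2 listed transcripts of HLA-C have the same span and length and are best read as 1 sum. PSMB8 and TAP1 overlap PSMB8-AS1 on the opposite strand, a noncoding RNA gene at 8.45 and 20.6 FPKM. The kit marks strand, but whether the counting used it is not given in the sources used here.

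**Figure D3:**
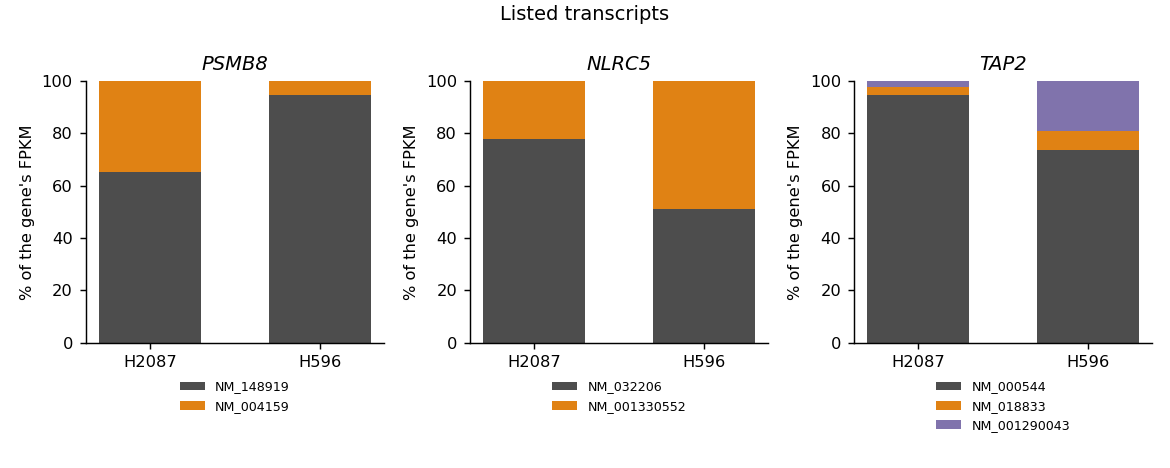
Share of each gene's FPKM (percent) held by its listed transcripts in H2087 and H596 for PSMB8, NLRC5 and TAP2, stacked to 100%. The orange block of PSMB8, NM_004159, was 34.6% in H2087 and 5.22% in H596, and the purple block of TAP2, NM_001290043, was 2.20% and 19.1%.

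The rest of the pathway was described by 8 lists of 66 genes, chosen with earlier results of these data known. Of the 66, 65 were in the data and 62 passed the filter. Of these, 10 were higher in H596 and 6 lower, and the median difference was 0.33. Both shares lay below the background of 18.2% and 14.2%. The same background applies to each list taken alone, and no count of called genes is read as particular to its list.

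Among 6 genes of peptide loading, 2 were higher, none was lower and the median was 0.72. TAPBP, which encodes tapasin, the bridge between TAP and the heavy chain, was at 28.3 and 129 FPKM. TAPBPL, its relative that edits bound peptides, was at 4.93 and 14.8 FPKM. CALR, the chaperone calreticulin, had the highest level of the list, with 263 and 399 FPKM, and was not called. Of 9 peptidases that trim peptides, 1 was lower and none was higher, with a median of 0.41. The lower gene was LAP3, a leucine aminopeptidase of the cytosol, with 37.9 and 18.1 FPKM. NRDC, the most abundant of this list, was at 41.2 and 56.7 FPKM. ERAP1 and ERAP2, the aminopeptidases of the endoplasmic reticulum, named after their values were seen, were at 10.5 and 19.3 FPKM and at 30.1 and 56.4 FPKM. Of a list of 6 genes that held PSMB10, the proteasome activators PSME1 to PSME4 and the assembly factor POMP, none was called, with a median of 0.10, and PSME1, a subunit of the activator that interferon-gamma induces, was at 198 and 304 FPKM.

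Among 8 factors of class I promoters, only NFYA, a subunit of NF-Y, was called, and it was higher, with 6.80 and 15.1 FPKM. The list's median was 0.44, and NFYC, its gene with the highest mean of both libraries, was at 19.2 and 35.8 FPKM. Of 14 genes of interferon and NF-kB signalling, 4 were higher and none was lower, where the background was 18.2% and 14.2%. Their median was 0.74. JAK2, a kinase of the interferon-gamma receptor, was at 0.636 and 8.03 FPKM. IRF1, the interferon-induced factor that binds the interferon response element, was at 8.92 and 51.8 FPKM, and IFNGR1, the ligand-binding chain of the receptor, at 14.01 and 67.2 FPKM. TYK2, a kinase of the type I receptor and the fourth of them, was at 7.75 and 31.8 FPKM. TYK2 was named after its values were seen. RELA, the gene with the highest mean of both libraries, was at 48.8 and 49.2 FPKM.

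Of 8 repressors of class I genes and genes of class I turnover, 1 was higher and 2 were lower, with a median of -0.46. The background was again 18.2% and 14.2%. SUSD6, which takes part in the degradation of class I molecules, was at 6.69 and 29.6 FPKM. MARCH9, a ubiquitin ligase that removes class I molecules from the surface, was at 65.6 and 4.58 FPKM, and PCGF1, a Polycomb protein, at 42.9 and 11.5 FPKM.

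**Figure D4:**
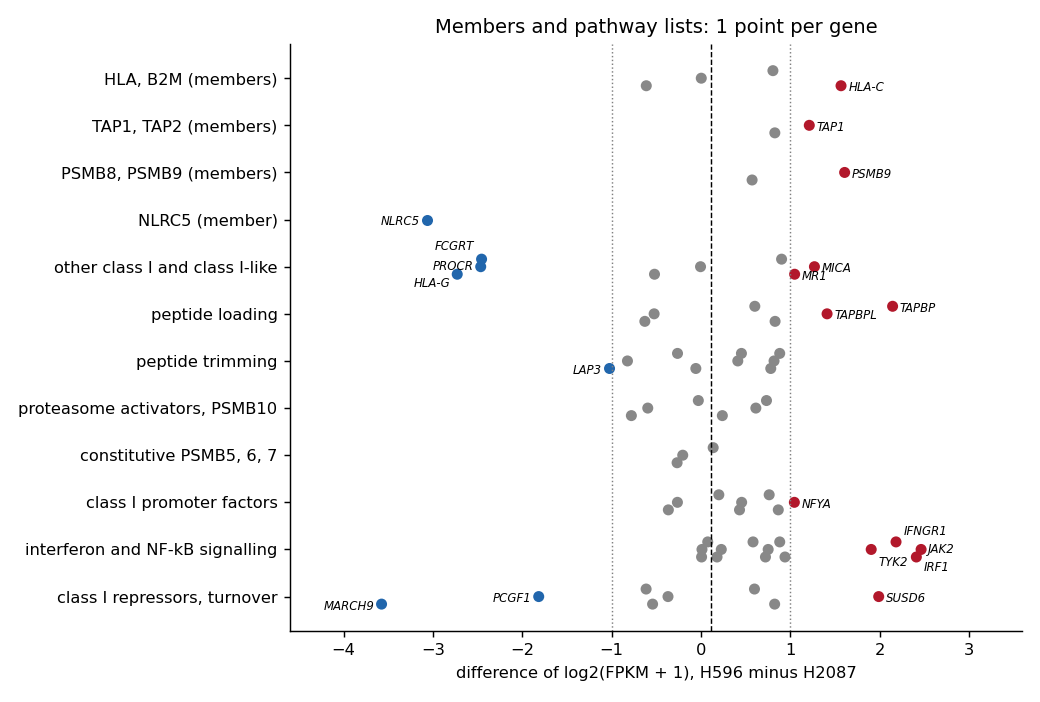
Difference of log2(FPKM + 1), H596 minus H2087, with 1 point per gene that passed the filter, for the members by role and for the 8 pathway lists. Red points were higher and blue points lower by at least 2-fold (dotted lines), and the dashed line is the median of all genes, 0.12. NLRC5 is at -3.07, and the 4 named genes of the interferon list are above 1.9.

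Of the 9 genes, 7 lie in the MHC, so their neighbours were examined, from ZBED9 (start 28539407) to ZBTB9 (end 33425320) on chromosome 6. Among the 115 other genes of this region that passed the filter, 38 (33.0%) were higher in H596 and 7 (6.09%) lower, with a median difference of 0.73, and 94 were above 0. Over all 13048 genes compared, 18.2% were higher and 14.2% lower, and 7196 were above 0. On the rest of chromosome 6, 149 of 551 genes (27.0%) were higher and 9.80% lower, with a median of 0.38. The stretch before the MHC, examined after these values were seen, is part of these 551 genes. There, 72 of 143 genes (50.3%) were higher and the median was 1.03. The 149 higher genes thus include these 72, and the 27.0% does not describe the chromosome outside this stretch. The differences of HLA-E (0.81), TAP2 (0.83) and PSMB8 (0.57) lay near the median of the region, HLA-C, TAP1 and PSMB9 above it, and HLA-B below it.

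The largest positive differences in the region were those of B3GALT4 (0.840 and 16.5 FPKM), DDR1 (25.5 and 218 FPKM) and ZNF311, which had 0 of 46961500 counts in H2087, allowing a share of up to 6.39e-06%, and 836 counts in H596. The lower genes were led by HLA-H, GPSM3 (19.8 and 0.627 FPKM) and HLA-G. Without the HLA and HCG genes and HCP5, 34 of 98 genes were higher and 2 lower. Around NLRC5, within 1 Mb, 1 of 32 other genes was higher and 10 were lower, with a median of -0.64, a stretch that holds the metallothionein genes. Around B2M, 5 of 25 were higher and 5 lower, with a median of 0.03. Of the neighbours, 7 of 32 were above 0 around NLRC5 and 13 of 25 around B2M. The copy number of these regions was not measured by this assay, and its part in the differences was not tested.

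**Figure D5:**
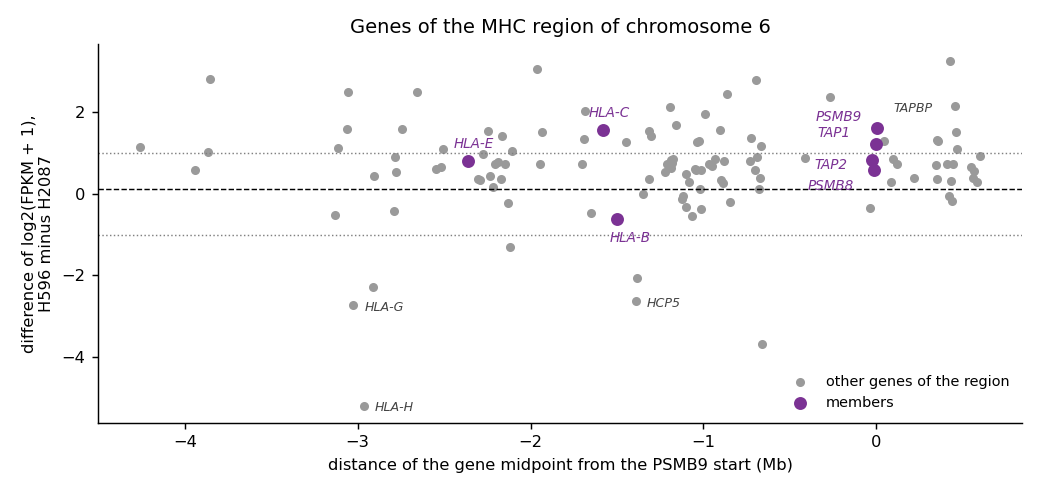
Difference of log2(FPKM + 1), H596 minus H2087, of 122 genes of the MHC region of chromosome 6 against the distance of the gene's midpoint from the PSMB9 start (Mb). Purple points are the 7 members and grey points the other 115 genes, of which 94 were above 0. Dotted lines mark 2-fold, and the dashed line marks the median of all genes, 0.12. HLA-G and HLA-H lie below -2.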

How the data were processed

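RNA-seq data of 1 H2087 and 1 H596 library were processed. According to the submitters' processing notes, the tools were bcl2fastq 1.8.4, Trimmomatic, HISAT2 2.0.5 and StringTie 1.3.3b, on hg19. The estimated counts deposited by the authors equalled the product of FPKM, length and 1 constant per library within 1% for all 8365 (H2087) and 9842 (H596) transcripts with at least 1000 counts, so they were read as estimates from coverage. FPKM values, as deposited by the authors, were used without rescaling. Whether reads were paired, and how reads of several genes were divided, is not given in the sources used here. hg19 holds 1 sequence per HLA gene, and its match to the alleles of these lines was not tested.

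Genes whose mean FPKM reached 1 were compared on the log2(FPKM + 1) scale, which understates low genes, and called at 2-fold. Levels have 95% Wilson intervals of the share of the total count, and ratios have exact conditional intervals; a count of 0 allows up to 3 counts. Both cover counting error only, since reads are not independent molecules. Alternatives were a pseudocount of 0.1, TPM, CPM with and without edgeR 4.0.16 TMM factors (R 4.3.3), centring, no filter or a mean FPKM of at least 10, sums over all loci, and the highest single transcript. Named genes were all members, the gene of each list with the highest mean FPKM and up to 3 called genes per direction, and the same for the MHC region without the highest mean. The members and lists were chosen with earlier results of these data known. Some genes of the pathway are not reported here and were left out of the lists and sums. Promoter windows are from RefSeq (GRCh38.p14). The scripts were tested on simulated data. Python 3.11.15, numpy 2.4.6, pandas 2.3.3 and scipy 1.17.1 were used.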

Additional observations from a re-analysis of the deposited data

How the results depend on the processing

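The count of 3 genes higher in H596 became 4 with TPM, which adds TAP2, and 4 with the highest single transcript, which adds PSMB8. HLA-C, TAP1 and PSMB9 were called under every alternative tried. PSMB9 had the largest of these 3 differences except with the highest single transcript. There, HLA-C was at 1.69 and PSMB9 at 1.61. The count of 1 gene lower became 0 when a mean FPKM of at least 10 was required, because the mean of NLRC5, 9.94, lies under that filter. Under the alternatives in which it was tested, the difference of NLRC5 ranged from -3.79 to -3.07. The difference of HLA-B ranged from -0.74 to -0.43, that of HLA-E from 0.68 to 0.99, that of TAP2 from 0.47 to 1.02 and that of PSMB8 from 0.28 to 1.10, and B2M lay from -0.12 to 0.19. Among the 9 genes, B2M was the only one whose difference changed sign. With the highest single transcript, the ratio of PSMB8 to PSMB5 was 0.977 in H2087 and 2.77 in H596. That of TAP1 to TAP2 was 0.864 and 1.48, and that of PSMB9 to PSMB6 was 0.324 and 1.20. The ratio of B2M to the sum of HLA-B, HLA-C and HLA-E was 3.17 and 1.82.

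In the MHC region, 35 genes were higher and 7 lower with TMM scaling, 34 and 7 after centring on the median, and 26 and 5 at a mean FPKM of at least 10. No paired analysis was possible because H2087 and H596 had 1 library each, and no replicate could be left out. Depth limits the values of NLRC5 in H596, with 507 counts, more than those of the other 8 genes, which had at least 2894 counts in each library. The intervals of HLA-B, HLA-C and HLA-E do not cover the division of reads among HLA genes or the match of alleles to hg19. Neither was tested.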
